A study of Mus musculus with 6 samples.

Results

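The Pax genes encode transcription factors that bind DNA through a shared paired domain. The mouse has 9 of them, Pax1 to Pax9, and all 9 were measured here, each by 1 probe set with a single gene symbol, out of 19938 genes. Members were taken by gene symbol. They fall into subfamilies by structure: Pax1 and Pax9 lack a homeodomain, Pax2, Pax5 and Pax8 keep part of one, and Pax3 with Pax7 and Pax4 with Pax6 carry a whole one. In the pharyngeal region Pax1 and Pax9 are known from the pouch endoderm, Pax9 also from the mesenchyme of the jaw and teeth, Pax3 and Pax7 from neural crest, Pax8 from the thyroid primordium, and Pax2, Pax5 and Pax8 from the midbrain-hindbrain boundary and the otic placode.

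RNA came from mandibular arches of C57BL/6 embryos at embryonic day 9.5. Tbx1-/- embryos (Tbx1 null, 3 arrays) were compared with Tbx1+/+ embryos (wild type, 3 arrays), to find the arch transcripts that depend on Tbx1, which encodes a pharyngeal T-box factor. To gather enough RNA, tissue from 3 embryos of each genotype was combined. The labels name no tissue restriction of the null genotype, and how the allele was made is not given in them. Values are log2 levels from Affymetrix Mouse Gene ST 1.0 arrays, so a difference of 1 is a doubling.

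The sequences before the transcription starts of Pax8 and Pax6 are shown because these were the members whose arrays did not overlap between genotypes. The set of promoter sequences used (build GRCm38.p6) holds 10 start windows for 7 of the 9 genes, and none for Pax3 and Pax4. In the 250 bases before each start, the T-box half-site AGGTGTGA was searched on both strands, and so was its core GGTGTG, which lies inside it. None of the 10 Pax windows held the half-site, against 1.12% of 32851 windows of the same length. The core was in 2 of the 10, against 16.3% of all windows. The whole windows of Pax8 (chr2:24475600-24475849, minus strand) and Pax6 (chr2:105668646-105668895, plus strand, before the more upstream of its starts, the other not being shown) follow. They hold no match, so no letter is capitalised.
Pax8: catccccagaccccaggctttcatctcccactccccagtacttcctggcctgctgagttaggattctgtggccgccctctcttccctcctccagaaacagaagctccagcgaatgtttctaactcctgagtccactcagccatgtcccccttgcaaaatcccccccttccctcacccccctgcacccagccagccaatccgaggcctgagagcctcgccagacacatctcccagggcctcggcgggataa
Pax6: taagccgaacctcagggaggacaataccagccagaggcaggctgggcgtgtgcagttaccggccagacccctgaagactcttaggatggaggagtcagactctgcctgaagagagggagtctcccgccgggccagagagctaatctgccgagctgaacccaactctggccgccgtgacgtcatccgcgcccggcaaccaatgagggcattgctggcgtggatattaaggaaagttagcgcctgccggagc

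The 2 windows with the core belong to Pax1 and Pax2, and the matches are given with 10 bases on each side and the core, or its reverse complement, in capitals. The first Pax1 match (chr2:147364767-147364792, plus strand) and the second (chr2:147364789-147364814, plus strand) lie close together, the second at the head of a GT repeat. The Pax2 match (chr19:44756677-44756702, plus strand) is before the most downstream of its 3 starts.
Pax1 at -217: gtatattcctGGTGTGtatgtgggtg
Pax1 at -195: ggtggggtggGGTGTGtgtgtgtgtg
Pax2 at -219: tagagagacaCACACCgggagcccag
A match describes these letters and is not a binding site, and a window without one says nothing about binding elsewhere.

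Tbx1 itself checked the labels. It was at 9.48, 9.39 and 9.63 on Tbx1 null arrays 1, 2 and 3, against 11.64, 11.36 and 11.31 on wild-type arrays 1, 2 and 3 (log2 change -1.94, SE 0.10, limma adjusted p = 0.000684). Tbx1 null array 3 stood apart in its Y-linked transcripts, with a mean log2 level of 5.73 over 3 genes, against 9.58 and 9.28 on the other null arrays and 8.57 to 9.85 on the wild-type arrays. The arrays of a genotype therefore did not all carry the same RNA. Changes of Pax1, Pax7, Pax8 and Pax9 are given with and without this array. Correlations and list means include it throughout. Whether arrays came from separate pools is not given, so all p-values reflect array-to-array spread that may be partly technical.

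No Pax gene passed the test over all genes, where 0.16% of 19938 genes had a limma adjusted p under 0.05. The 9 adjusted p-values by limma lay between 0.340 for Pax6 and 0.967 for Pax4. Below an unadjusted limma p of 0.05 there was 1 member higher, Pax8, beside 5.5% of all genes, and 1 lower, Pax6, beside 3.94% of all genes. These were also the 1 higher and 1 lower member whose arrays did not overlap, beside 8.36% and 7.06% of all genes. The balance of 1097 higher to 786 lower genes at the unadjusted threshold became 931 to 1081 when each array was centred on its median, and Pax8 and Pax6 kept their signs there. The median change of the family was -0.10, with 3 members above 0 and 6 below, and that of all genes was -0.01. Members differed widely in the width of their intervals, which reflects spread between arrays: the 95% interval of Pax4 spanned -0.11 to 0.13, while that of Pax8 spanned 0.11 to 1.47. As the RNA was bulk, fewer cells of a type and less RNA per cell cannot be told apart for any of them.

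**Figure D1:**
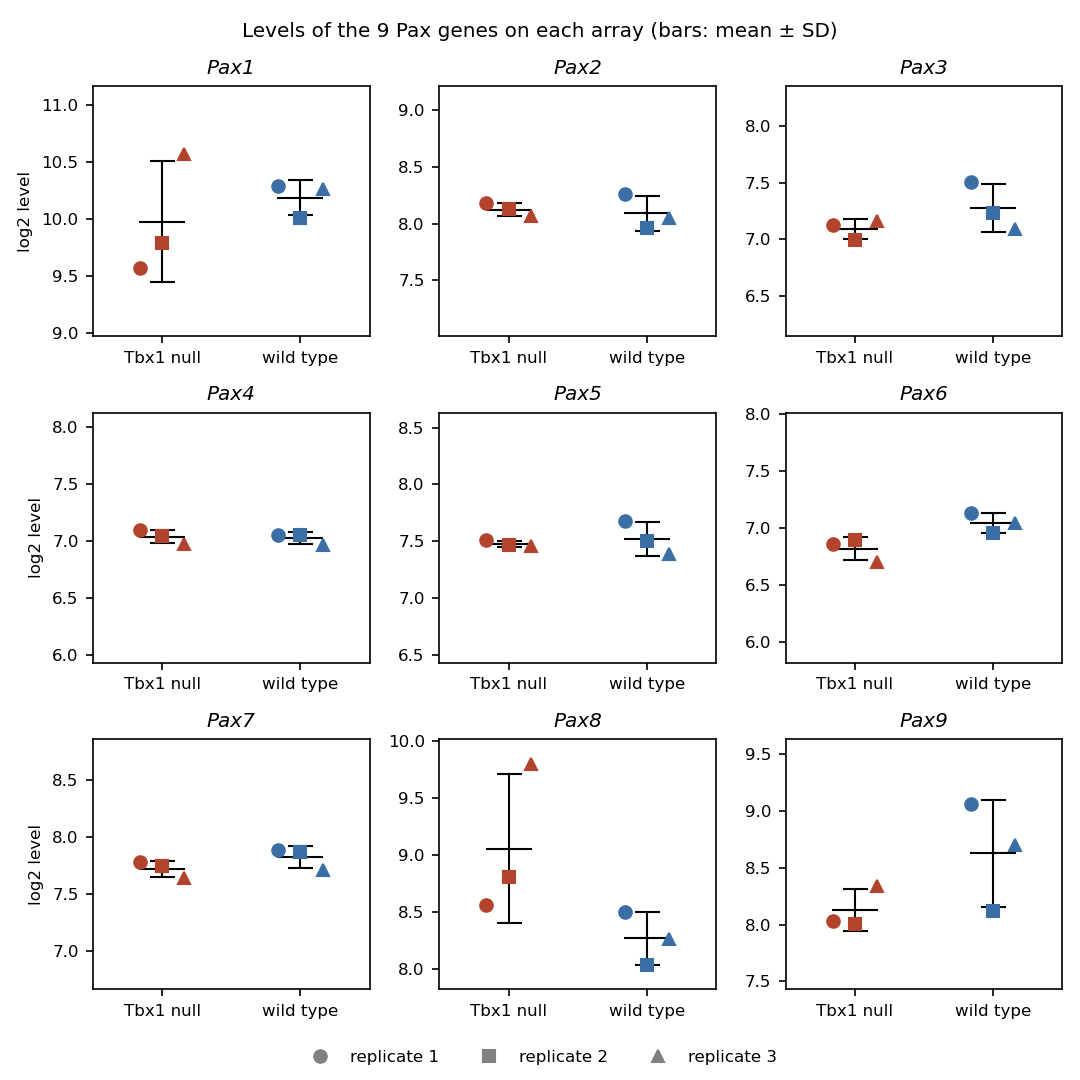
Log2 level of each Pax gene (vertical axis, the same span of log2 units in every panel) on the 3 Tbx1 null and 3 wild-type arrays; symbols are replicates and bars are mean ± SD. Pax8 and Pax6 do not overlap between genotypes, and Pax1, Pax8 and Pax9 spread widely within a genotype.

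Pax1 and Pax9 mark the pharyngeal pouches and the sclerotome, and Pax9 is needed in mouse for teeth and pouch derivatives. Pax1 (probe set 10476874, Entrez gene 18503) was at 9.57, 9.79 and 10.58 on Tbx1 null arrays 1, 2 and 3, against 10.29, 10.01 and 10.27 on wild-type arrays 1, 2 and 3. Null arrays 1 and 2 lay below all wild-type arrays and null array 3 above them, so the genotypes overlapped. The log2 change was -0.21 (SE 0.23, 95% interval -0.75 to 0.33, limma adjusted p = 0.849). Without null array 3 it was -0.51 (limma adjusted p = 0.265), and without null array 1 it was -0.01.

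Pax9 (probe set 10395849, Entrez gene 18511) was at 8.03, 8.005 and 8.34 on Tbx1 null arrays, against 9.06, 8.12 and 8.70 on wild-type arrays. Wild-type arrays 1 and 3 lay above every null array, and wild-type array 2 lay among the null arrays. Its change was -0.50 (SE 0.22, 95% interval -0.999 to 0.0010, limma adjusted p = 0.530), a 1.41-fold lower level. Without wild-type array 2 it was -0.75 (adjusted p = 0.244), without wild-type array 1 it was -0.28 and without null array 3 it was -0.61. An exact permutation test over the arrays gave a two-sided p of 0.2 for Pax9 and 0.6 for Pax1, where 0.1 is the smallest that 3 against 3 can give.

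Pax2, Pax5 and Pax8 act at the midbrain-hindbrain boundary and in the otic placode, and Pax8 is required for the follicular cells of the thyroid. Pax8 (probe set 10480477, Entrez gene 18510) was at 8.56, 8.80 and 9.80 on Tbx1 null arrays 1, 2 and 3, against 8.50, 8.03 and 8.26 on wild-type arrays 1, 2 and 3. Every null array was above every wild-type array, although null array 1 exceeded wild-type array 1 by little and null array 3 stood far above the rest. The change was 0.79 (SE 0.29, 95% interval 0.11 to 1.47), 1.73-fold, with an unadjusted limma p of 0.0284 and an adjusted p of 0.437. The exact permutation p was 0.1, the smallest possible here. Without null array 3 the change was 0.42 (limma adjusted p = 0.511).

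The other members of this subfamily stayed close to their wild-type levels. Pax2 (probe set 10463389, Entrez gene 18504) was at 8.18, 8.13 and 8.06 on null arrays, against 8.26, 7.96 and 8.05 on wild-type arrays, a change of 0.03 (95% interval -0.15 to 0.21, limma adjusted p = 0.937). Pax5 (probe set 10512669, Entrez gene 18507), known for B cells as well as the midbrain, was at 7.51, 7.46 and 7.46 on null arrays, against 7.68, 7.50 and 7.38 on wild-type arrays, a change of -0.05 (95% interval -0.22 to 0.13, adjusted p = 0.906). In both genes the null arrays lay within the wild-type range. The intervals leave room for changes of Pax2 between 0.903-fold and 1.16-fold and of Pax5 between 0.860-fold and 1.09-fold, so these data do not show that either was the same.

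Pax3 and Pax7 act at the neural plate border, in neural crest and in muscle progenitors of the trunk, while the head muscles of the arch start without Pax3. Pax3 (probe set 10355916, Entrez gene 18505) was at 7.13, 6.99 and 7.16 on Tbx1 null arrays, against 7.51, 7.24 and 7.09 on wild-type arrays. Wild-type arrays 1 and 2 were above the null arrays and wild-type array 3 was among them. The change was -0.18 (SE 0.10, 95% interval -0.42 to 0.06, limma adjusted p = 0.648), and -0.07 without wild-type array 1. Pax7 (probe set 10517715, Entrez gene 18509) was at 7.78, 7.75 and 7.64 on null arrays, against 7.89, 7.87 and 7.71 on wild-type arrays. Its change was -0.10 (SE 0.06, 95% interval -0.25 to 0.05, adjusted p = 0.695), with overlap through wild-type array 3. Without wild-type array 3 it was -0.16, and without null array 3 it was -0.06.

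Pax6 is the master gene of the eye and also patterns forebrain and neural tube, and Pax4 is known from the insulin-producing cells of the pancreas. Pax6 (probe set 10474312, Entrez gene 18508) was at 6.86, 6.89 and 6.70 on Tbx1 null arrays, against 7.13, 6.96 and 7.05 on wild-type arrays. All 3 null arrays were below all 3 wild-type arrays, with a gap smaller than the range within either genotype. The change was -0.22 (SE 0.07, 95% interval -0.38 to -0.07), 1.17-fold lower, with an unadjusted limma p of 0.0114, an adjusted p of 0.340 and an exact permutation p of 0.1. It lay between -0.27 and -0.17 with any 1 array left out, its unadjusted limma p between 0.00859 and 0.0386. Pax4 (probe set 10543530, Entrez gene 18506) was at 7.09, 7.05 and 6.98 on null arrays, against 7.06, 7.06 and 6.97 on wild-type arrays, a change of 0.01 (95% interval -0.11 to 0.13, adjusted p = 0.967). Pax6 was the dimmest member, with a mean over the 6 arrays of 6.93, against 7.03 for Pax4 and a first quartile of 6.81 over all genes. No background probes were used here, so whether dim members such as Pax6 and Pax4 were expressed at all cannot be judged from these levels.

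**Figure D2:**
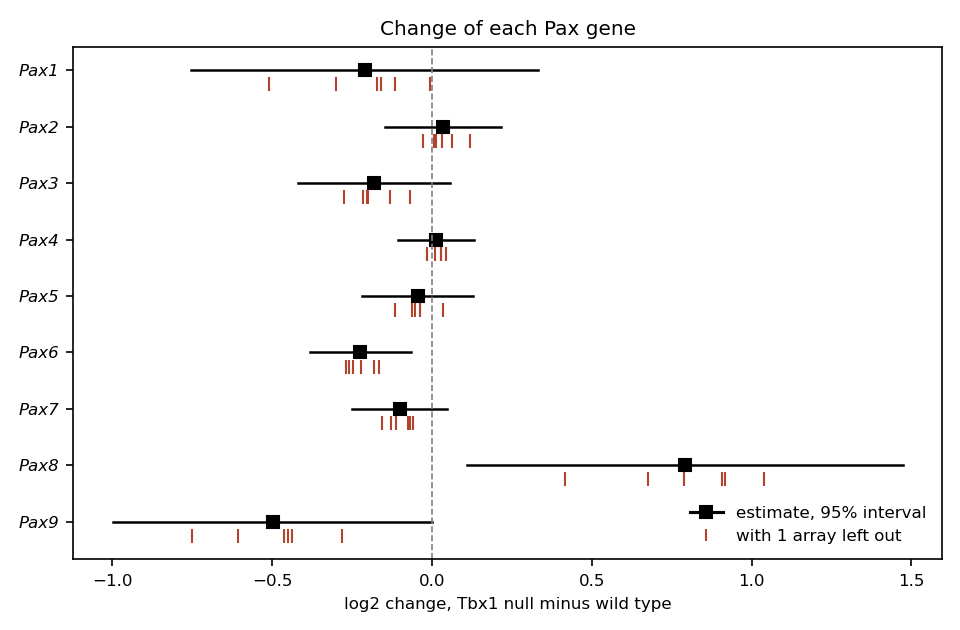
Log2 change of each Pax gene, Tbx1 null minus wild type (horizontal axis), with its 95% interval (black) and the 6 estimates with 1 array left out (red ticks). Pax8 ranges from 0.42 to 1.04 and Pax1 from -0.51 to -0.01 as single arrays are left out, while Pax6 stays between -0.27 and -0.17.

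Pax1, Pax8 and Pax9 spread widely between arrays of the same genotype. Their SD within a genotype was 0.391, 0.494 and 0.359 on the log2 scale, against a median of 0.0728 over all genes. Of 19938 genes, 16 spread more than Pax8, 44 more than Pax1 and 65 more than Pax9. In Pax1 and Pax8 the spread was in the Tbx1 null arrays (SD 0.530 and 0.658, against 0.157 and 0.232 in wild type). In Pax9 it was in the wild-type arrays (SD 0.187 in Tbx1 null and 0.472 in wild type). The remaining 6 members had an SD between 0.0553 for Pax4 and 0.161 for Pax3. This is a description of these arrays, with no test.

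**Figure D3:**
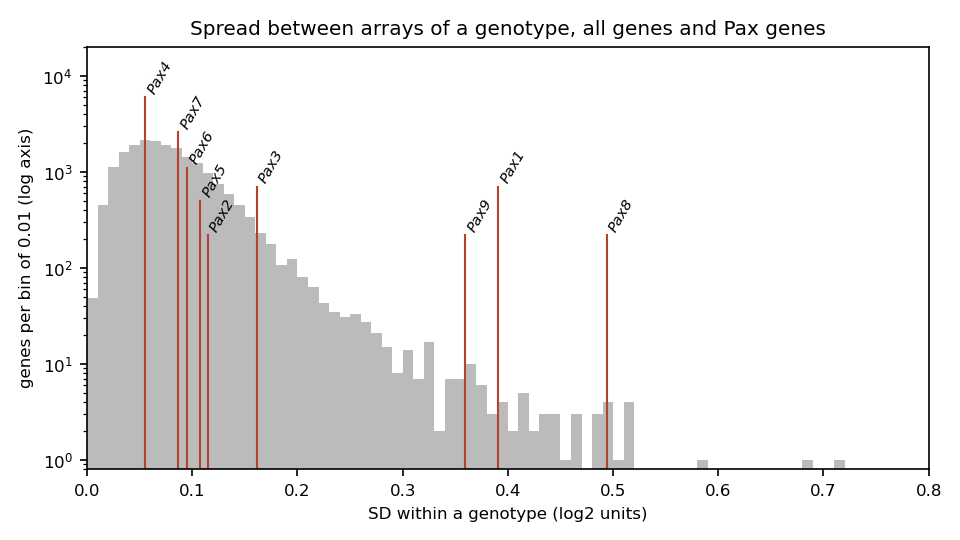
Number of genes (vertical axis, log scale) by SD between arrays of a genotype (horizontal axis, log2 units), with the 9 Pax genes as red lines; 7 genes above 0.8 are not drawn. Pax9, Pax1 and Pax8 lie at 0.359, 0.391 and 0.494, far in the upper tail.

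Mean levels of several marker lists of other cells varied across the arrays along with a Pax gene. Over the 6 arrays, which share 2 genotypes, Pearson's r was highest for Pax1 with the endothelial list (0.962), followed by Pax8 with the cardiac list (0.943), Pax9 with the neural tube list (0.934) and with the crest and glial list (0.925), and Pax3 with the crest and glial list (0.911). Pax8 with the epithelial list (0.909) and Pax6 with the primitive erythroid list (0.892) came next, each with a Spearman's rho of 0.943. These are descriptions with no test, and the pairs described next are those in which the whole order of arrays was shared. The 11 cardiac muscle markers had mean log2 levels of 8.73, 8.99 and 9.24 on Tbx1 null arrays 1, 2 and 3, against 8.61, 8.36 and 8.37 on wild-type arrays 1, 2 and 3. This is the order of the arrays by Pax8. Of these markers 10 of 11 lay above 0, 8 of them below an unadjusted limma p of 0.05, beside 5.5% of all genes higher. Their median change was 0.62, against -0.01 over all genes. The cardiac T-box gene Tbx20 passed over all genes (change 0.68, adjusted p = 0.0422), though in none of the 6 fits with 1 array left out. Smyd1 and Myl7, genes of heart muscle, had changes of 0.63 and 0.84 and did not pass. Without null array 3 Smyd1 was at 0.53 and Myl7 at 0.64. Among the thyroid factors that work with Pax8, singled out after their values were seen, Nkx2-1 had a change of 0.32 and Hhex of 0.25, each highest on null array 3, and Foxe1 of 0.08, and none passed. Without null array 3 Nkx2-1 was at 0.20 and Hhex at 0.13, and Hhex was at 0.15 without wild-type array 2.

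The 6 migratory crest and glial markers had mean log2 levels of 8.97, 8.92 and 9.10 on Tbx1 null arrays, against 9.73, 9.08 and 9.18 on wild-type arrays, the order of the arrays by Pax9. Of these, 4 lay below 0 and 2 above, the latter being Ednrb at 0.20 and Erbb3 at 0.0005 (median -0.32). Below an unadjusted limma p of 0.05, 2 were lower and 0 higher, beside 3.94% and 5.5% of all genes. Ngfr, a neurotrophin receptor of crest cells, fell (change -0.70, adjusted p = 0.0142) and passed in 2 of the 6 fits with 1 array left out, while Sox10 and Fabp7, genes of crest and glia, had changes of -0.85 and -0.50 and did not pass. Without wild-type array 1 Sox10 was at -0.44 and Fabp7 at -0.23. Of 63 pairs of a Pax gene and a marker list, 2 shared the whole order of the 6 arrays, these being the 2 described. Whether either cell type contributed to the Pax values was not tested.

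**Figure D4:**
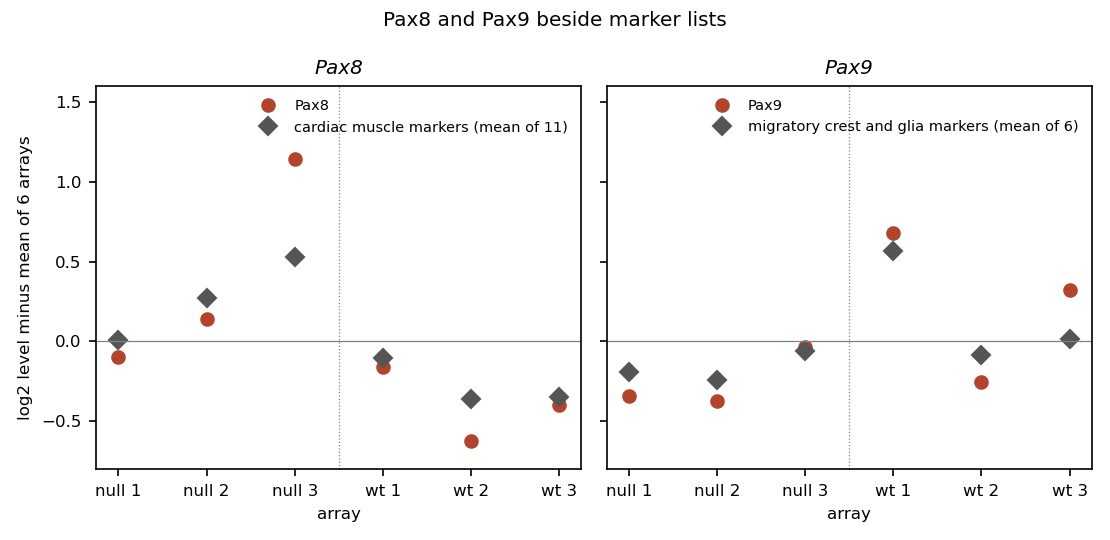
Log2 level minus the mean of 6 arrays (vertical axis) on each array (horizontal axis) for Pax8 beside the mean of 11 cardiac muscle markers (left) and for Pax9 beside the mean of 6 migratory crest and glial markers (right). Null array 3 is highest in both measures on the left, and wild-type array 1 in both on the right.

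For the other marker lists, and the lists after them, counts of higher and lower genes are those below an unadjusted limma p of 0.05. Over all genes 5.5% were higher and 3.94% lower at that threshold. Of 18 neural tube and neuron markers 1 was higher and 2 lower (median -0.04, list means of 7.84 to 7.93 in Tbx1 null and 7.88 to 8.07 in wild type), among them Nefl, a neurofilament gene, at -0.30, Dcx, of migrating neurons, at 0.16, and the neuronal factor Neurod1 at -0.61 (-0.39 without wild-type array 1). Of 13 epithelial markers 4 were higher and 0 lower (median 0.10, list means of 10.49 to 10.57 in Tbx1 null and 10.35 to 10.43 in wild type), with the keratins Krt14 and Krt8 at 0.43 and 0.24 and Trp63, of basal epithelium, at 0.23. Of 9 primitive erythroid markers all 9 were lower (median -0.30, list means of 10.05 to 10.12 in Tbx1 null and 10.35 to 10.42 in wild type), with the anion exchanger Slc4a1 at -0.40 and the factors Klf1 and Gata1 at -0.37 and -0.32. Of 6 Hox genes of the second arch and hindbrain 2 were higher, Hoxa2 at 1.11 and Hoxb2 at 0.63, while Hoxb3 was at 0.18, or 0.11 without either null array 3 or wild-type array 3 (list means of 7.80 to 7.95 in Tbx1 null and 7.53 to 7.59 in wild type). Of 10 endothelial markers 0 were higher or lower (median -0.03, list means of 10.33 to 10.52 in Tbx1 null and 10.43 to 10.45 in wild type), the lowest p being that of Tek at -0.20 (-0.10 without null array 1 and -0.31 without null array 3), before Emcn at -0.04 and Kdr at -0.04. None of the markers in these 5 lists passed over all genes. The list means of the epithelial, erythroid and Hox lists did not overlap between genotypes, and their part in the Pax values was not tested.

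Genes linked to the Pax family by region, pathway or homeodomain type were read from 9 lists of 147 distinct genes. Of the 147, 134 were measured, and not all are known to work with a Pax protein. Of the 134, 1 rose and 4 fell by the limma adjusted p over all genes, and 22 were higher and 25 lower before adjustment. Tbx1, the targeted gene, is among the 4 and the 25, which follows from the genotype and is no result about the lists. Over all genes 0.16% passed, and 5.5% were higher and 3.94% lower before adjustment, which is the background for every list that follows. Msx2, a homeobox gene of crest and mesenchyme, rose (12.21, 12.17 and 12.18 on Tbx1 null arrays, against 11.73, 11.86 and 11.81 on wild-type arrays, adjusted p = 0.0422). Besides Tbx1 and Ngfr, those that fell were Lhx2, a LIM-homeodomain factor (change -1.56, adjusted p = 0.000784), and Foxe3, a forkhead gene of the lens. Foxe3 was at 8.94, 8.93 and 9.01 on null arrays, against 9.53, 9.45 and 9.48 on wild-type arrays (change -0.53, SE 0.05, adjusted p = 0.0133). Its genotypes lay well apart, and it passed in 3 of the 6 fits with 1 array left out. With 1 array left out the count of 5, Tbx1 included, was between 2 and 5. It was 2 without null array 1, null array 2 or wild-type array 2, and 3 without null array 3. Msx2 did not pass in any of the 6 fits with 1 array left out, while Gata3, not called with all arrays, passed in 1. The 5 called without wild-type array 3 were therefore not the same 5 genes.

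Of the lists set beside Pax1 and Pax9, the pouch endoderm list had 15 of 19 members above 0. The mandibular mesenchyme list had 14 of 19 above 0, and the sclerotome list 6 of 14. The median change of all genes was -0.01, and the share of all genes above 0 was not counted. Of 19 pouch endoderm genes 4 were higher and 1 lower (median 0.04, none passed over all genes), with the growth factor Fgf15 at 0.27, the LIM-homeodomain factor Isl1 at 0.36 and the homeobox gene Nkx2-3 at 0.28. Of 19 genes of mandibular and tooth-field mesenchyme 10 were higher and 4 lower (median 0.14, none passed). There Bmp4, a ligand that acts with Pax9 and Msx1 in the tooth field, was at 11.90, 11.99 and 11.97 on Tbx1 null arrays, against 11.67, 11.62 and 11.60 on wild-type arrays (change 0.32, adjusted p = 0.0577). The homeobox genes Pitx1 and Prrx2 had changes of 0.33 and 0.23. Genes of a list are not independent of each other.

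Of 14 sclerotome and somite genes 1 was higher and 3 lower (median -0.04, none passed). Meox1, a homeobox gene that acts with Pax1 and Pax3 in somites, was at 7.10, 6.92 and 7.04 on Tbx1 null arrays, against 7.62, 7.43 and 7.50 on wild-type arrays (change -0.50, limma adjusted p = 0.05002). That value lay just above the threshold. The receptor gene Met, a target of Pax3 in trunk muscle progenitors, had a change of 0.34 and the forkhead gene Foxc1 of -0.41.

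In the lists set beside Pax3 and Pax7, 2 of 17 crest specifiers were higher and 4 lower (median -0.08). Msx1 was at 0.44 beside Msx2 and Ngfr. Of 14 branchiomeric muscle genes 3 were higher and 5 lower, Tbx1 itself among the 5 (median -0.09). Myf5, the myogenic factor that Pax3 governs in the trunk, had a change of -0.66 with an adjusted p of 0.0509. Tbx1, the targeted gene, and Lhx2 were the members of this list that passed.

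In the list set beside Pax2, Pax5 and Pax8, 2 of 21 midbrain-hindbrain, otic and epibranchial genes were higher and 3 lower (median -0.02, none passed). En2, an engrailed gene downstream of Pax2 and Pax5 at the midbrain-hindbrain boundary, was at 7.07, 7.16 and 7.30 on Tbx1 null arrays, against 7.84, 7.48 and 7.72 on wild-type arrays (change -0.50, limma adjusted p = 0.137). Gata3, a factor of the otic region and pharyngeal arches, had a change of 0.48 and Otx2, of midbrain and forebrain, of -0.33 (-0.22 without wild-type array 1). Of 17 eye and forebrain genes, set beside Pax6, 0 were higher and 5 lower (median -0.07), with Emx2 at -0.34 beside Lhx2 and Foxe3. Pax6 was also lower in sign, with the change given above.

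Of 21 homeobox genes with a paired-type homeodomain but no paired domain, 4 were higher and 5 lower (median -0.03, none passed), with Gsc, of the mandibular mesenchyme, at -0.22 beside Pitx1 and Prrx2. Of 21 cofactors and binding partners of Pax proteins 3 were higher and 2 lower (median -0.01, none passed). Six2, a homeobox partner of Eya proteins, was at 8.91, 8.86 and 9.12 on Tbx1 null arrays, against 9.98, 9.62 and 9.63 on wild-type arrays (change -0.78, adjusted p = 0.0577). The inhibitor of differentiation Id2 and the Pax-binding protein gene Paxbp1 had changes of 0.16 and 0.14. The Six2 difference was the largest of these 3 and its genotypes did not overlap. Sox10, also on this list, had a larger change of -0.85 without overlap, but -0.44 without wild-type array 1.

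**Figure D5:**
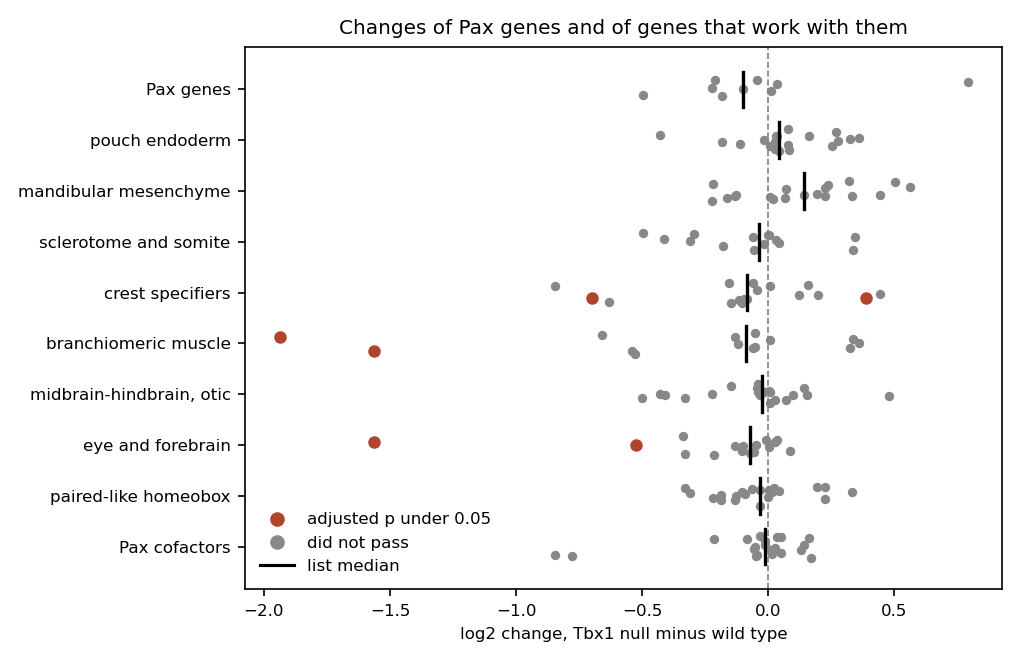
Log2 change, Tbx1 null minus wild type (horizontal axis), of the 9 Pax genes and of each gene on the 9 lists, with list medians as black bars and genes past an adjusted p of 0.05 in red. No Pax gene is red, and Tbx1, Lhx2, Ngfr, Foxe3 and Msx2 are.

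The Pax genes are spread over 6 chromosomes, with Pax1, Pax6 and Pax8 on chromosome 2 and Pax5 and Pax7 on chromosome 4. For each, the nearest measured protein-coding gene on either side that does not overlap it was read from the RefSeq table. None of these 18 neighbours passed over all genes, and below an unadjusted limma p of 0.05 there was 1 higher, Epha4 beside Pax3, and 2 lower, Nkx2-9 beside Pax9 and Klhdc7a beside Pax7. Over all genes 5.5% were higher and 3.94% lower. Nkx2-9, a homeobox gene of the ventral neural tube, was at 9.61, 9.88 and 9.14 on Tbx1 null arrays, against 9.86, 10.17 and 9.98 on wild-type arrays (change -0.46, adjusted p = 0.447), and without null array 3 its change was -0.26. Null array 3 was its lowest array, whereas in Pax9 that array was the highest of the null arrays. Epha4, an ephrin receptor, had a change of 0.32 and Klhdc7a of -0.16 (-0.10 without wild-type array 1).

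The genes most like a member across the 6 arrays were found by Pearson's r, as a description. For Pax1 they were Slc38a1, Ergic1 and Twist1 (r = 0.996, 0.992 and 0.992), of which Twist1 is a bHLH factor of arch mesenchyme. For Pax3 they were Cbx7, Gpr39 and Amigo1 (r = 0.999, 0.998 and 0.994), and for Pax9 Cdyl2, Phlda1 and Atf3 (r = 0.990, 0.987 and 0.986). For Pax6 they were Onecut1, Cybb and Dll1 (r = 0.995, 0.988 and 0.987), where Onecut1 is a factor of early neurons and Dll1 a Notch ligand. Between 48 genes for Pax1 and 91 for Pax9 exceeded 0.95, as 6 arrays from 2 genotypes allow many such matches among 19938 genes. The size of the change could differ greatly: Slc38a1 stayed between 12.61 and 12.66 while Pax1 spanned 9.57 to 10.58.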

How the data were processed

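Gene expression in mandibular arches was measured on 6 arrays. Deposited values are log2 levels of probe sets. RMA, which corrects background, normalises the arrays together and summarises each probe set, was run by the authors in Affymetrix Expression Console 1.1 (source: the submitters' processing notes); which library files and filters went into it is not given in the sources used. RMA draws the arrays' distributions together and tends to understate changes of dim probe sets. The table held 0 columns of other samples and 0 missing values, and no array copied another.

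Of 35556 probe sets, 21789 had 1 symbol in the platform annotation, 1621 several and 12146 none; 21698 matched a RefSeq table (GRCm38.p6) by Entrez ID, with 0 symbols changed. Each gene was read from its probe set of highest mean, which gave 19938 genes. The test was lmFit and eBayes of limma 3.58.1 under R 4.3.3 (two-sided, all 6 arrays, no covariate), with p-values adjusted by Benjamini-Hochberg over all genes. Changes are Tbx1 null minus wild type, and the median SE was 0.0579. The number of arrays limits the precision. On simulated data for this comparison over 19938 genes, 25 of 50 true changes of 1.25-fold were found, against 47 of 50 at 1.5-fold and all 50 at 2-fold. There 179 genes passed, against 32 in the data, which eases the adjusted threshold. The simulated spread was drawn from the fit over all genes. Pax1, Pax8 and Pax9 spread far more than most genes, so these shares do not hold for them.

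The members and lists were chosen with earlier results of these data known. Named genes were Tbx1, the 9 Pax genes, the 3 of lowest p on each list, and the 3 most correlated with Pax1, Pax3, Pax9 and the member of lowest p. Neighbouring genes and the thyroid factors were added later. Alternatives were a replicate block, leaving out each array, quantile normalisation again, median centring, a filter at the first quartile of mean level, trended and robust eBayes, array weights and averaging the probe sets of each gene. Same-numbered arrays deviated together with r = -0.05, 0.26 and 0.15, so the replicate numbers were not taken to pair the arrays.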

Additional observations from a re-analysis of the deposited data

How the results depend on the processing

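No Pax gene passed an adjusted p of 0.05 in the reported fit or in any of the 13 others (2 members at an unadjusted limma p under 0.05, 1 to 4 in the others: 1 with trended and robust eBayes, 4 with array weights, and 2 to 4 with 1 array left out, the 4 being without Tbx1 null array 3). Pax1, Pax3, Pax6, Pax7, Pax8 and Pax9 kept their sign in all of them. The near-zero changes of the other 3 did not: Pax2 was -0.029 without wild-type array 2, Pax4 was -0.00178 after centring on array medians, -0.014 without Tbx1 null array 1 and -0.017 without wild-type array 3, and Pax5 was 0.033 without wild-type array 1. With 1 array left out Pax2 ranged from -0.029 to 0.12, Pax4 from -0.017 to 0.044 and Pax5 from -0.11 to 0.033. Array weights brought Pax9 to -0.24, Pax6 to -0.13 and Pax2 to 0.13. All 9 members lay above the first quartile of mean level and stayed in that filtered fit, whereas Dcx lay below it and has no value there.

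The count of 32 genes called over all genes was 6 with the replicate block, 96 with trended and robust eBayes, 334 with array weights and 3 to 20 with 1 array left out. The 5 called genes on the Pax-related lists, the targeted Tbx1 among them, became 2 with the block, where Tbx1 and Lhx2 passed. The count was 13 with trended and robust eBayes, 20 with array weights and 2 to 5 with 1 array left out. The cause was not tested. With the block, which moved no estimate, Pax8 had an adjusted p of 0.367 and Pax9 of 0.374. Leaving out Tbx1 null array 1 turned Kdr to 0.011. Of the 49 named genes outside the family other than Tbx1 and those chosen by likeness, 12 moved by over 1.5 times when some array was left out. Array weights brought Hoxb3 to 0.10, Sox10 to -0.56, Neurod1 to -0.39, Fabp7 to -0.31 and Nkx2-1 to 0.20.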
